A study of Cenococcum geophilum 1.58 with 6 samples.

Results

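The genes described here encode secreted proteins of the ectomycorrhizal ascomycete Cenococcum geophilum that were classed neither as small secreted proteins (SSPs) nor as carbohydrate-active enzymes (CAZymes). They were taken from the study's list of secreted proteins regulated in ectomycorrhizal root tips of poplar or pine, as every entry whose class contained neither name. This gave 83 genes of the 14748 in the files, with 5 classed as proteases, 5 as lipases and 73 as secreted proteins with no further class (SP). The list also holds 89 SSPs, 48 CAZymes and 1 protease that is also an SSP, which are not described. The class is a prediction made by the study from the protein sequence. No protein sequence was used here, so signal peptides were not checked, and some of the family domains below, such as hexokinase, cytochrome P450 and pirin, are better known from proteins that stay inside cells.

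Filamentous fungi feed by releasing enzymes onto their surroundings and taking up the products. Secreted peptidases cut proteins and peptides, lipases and esterases split ester bonds of fats and other compounds, and phosphatases and sulfatases release phosphate and sulfate. Secreted oxidases, tyrosinases and peroxidases act on sugars, phenols and other small molecules, and a further set of secreted proteins builds, anchors to or binds the cell wall. In an ectomycorrhiza the hyphae form a mantle around the root tip and grow between the outer root cells, so that secreted proteins meet plant walls and the plant apoplast.

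The symbiotic tissue was poplar ectomycorrhiza (poplar ECM), that is, root tips of the hybrid Populus tremula x alba (INRA clone 717-1B4) colonised by C. geophilum isolate 1.58 in Petri dishes. It was set against free-living mycelium (FLM), pure cultures of the same isolate without a plant. Both groups grew on cellophane over MNM medium low in phosphorus and nitrogen, both were harvested at day 60, and each has 3 libraries labelled as biological replicates. One isolate and 1 poplar clone were used, and the number of root tips behind each library is not given in the sources used here. A root tip holds plant and fungal cells and the files count fungal genes only. In such bulk samples, fewer fungal cells of a type and less RNA per cell cannot be told apart.

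Total counts ran between 11197509 and 14396613 in the poplar ECM libraries and between 52305281 and 54586073 in the FLM libraries. Poplar ECM replicates 2 and 3 were read on a newer sequencer than the other 4 libraries, so that this technical split cannot be fully told apart from the groups. A model with a sequencer term therefore compares poplar ECM replicate 1 alone with FLM. The loss of a call in that model thus rests on 1 poplar ECM library, whereas the call itself was made on all 3. Where a gene has no count, the limit set by 3 counts of the total is 0.268 CPM (counts scaled to a common library total) in the shallowest poplar ECM library and 0.0574 CPM in the shallowest FLM library, and covers counting error only. All 83 listed genes passed the filter of 10 counts in at least 3 libraries. Their lowest count was 5 in a poplar ECM library and 55 in an FLM library, and 64 of them had at least 100 counts in every library.

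The groups were compared by edgeR's quasi-likelihood test over the 12692 genes that passed the filter. To be called, a gene needed a difference of more than 1 on the log2 scale in either direction and an adjusted p (Benjamini-Hochberg) under 0.05. The list was drawn up from this same contrast, together with pine ECM libraries not analysed here. Fold changes and calls of the listed genes are therefore a description without a p-value. Below, "normalized count" means CPM scaled with edgeR's TMM factors, given for replicates 1, 2 and 3 of each group, and log2 fold changes are given as poplar ECM over FLM with their standard error.

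Of the 83 genes, 27 were called higher and 11 lower in poplar ECM, and 45 were not called. That is 45.8% called, beside 13.2% of all genes tested (9.94% called higher and 3.28% called lower), a difference that the choice of the list on this contrast builds in. All 3 poplar ECM libraries lay above all 3 FLM libraries for 38 genes and below them for 21, and the groups overlapped for 24. Among all genes tested the same 2 patterns were found for 22.2% and 21.4%. The median log2 fold change was 0.48, beside 0.0097 over all genes tested. Rises were the larger changes, with 12 of the called rises above a log2 fold change of 2, 7 above 3 and 3 above 4, whereas the lowest fall stood at a log2 fold change of -1.95. The balance of calls depended on scaling, since library totals in place of TMM gave 18 called higher and 20 called lower. Listed SSPs and CAZymes had medians of 1.42 and 1.28, with 51 called higher and 7 lower among 86 tested SSPs, and 30 higher and 4 lower among 48 CAZymes.

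By class, 1 protease was called higher and 1 lower, 2 lipases higher and 1 lower, and 24 SP higher and 9 lower. The class SP is mixed. Domain annotation placed 50 of its 73 genes in an enzyme or protein family, among them 4 peptidases and 4 esterases beyond those classed as such. The 83 genes were therefore grouped by domain. Domain entered the choice of the list through the classes, since enzymes classed as CAZymes were left out. Genes called higher were 4 of 7 flavin enzymes, 4 of 6 wall and polysaccharide proteins, 3 of 6 proteins of single other domains, 3 of 9 lipases and esterases and 7 of 23 genes with no family domain. Haem, copper and ferritin-like proteins, counted together with an intradiol dioxygenase, had 4 called higher and 4 called lower of 11. Peptidases held 3 called falls and 1 called rise among 9 genes, and the 9 phosphatases, nucleases and sulfur enzymes and the 3 amidases together held 1 call. The gene just inside the limit on the higher side was the peptidase Cenge3:658251 at a log2 fold change of 1.01, and the one just outside was the peptidase Cenge3:672784 at a log2 fold change of 0.99. On the lower side these were the peptidase Cenge3:679371 at a log2 fold change of -1.03 and the phosphodiesterase Cenge3:669858 at a log2 fold change of -0.96.

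**Figure D1:**
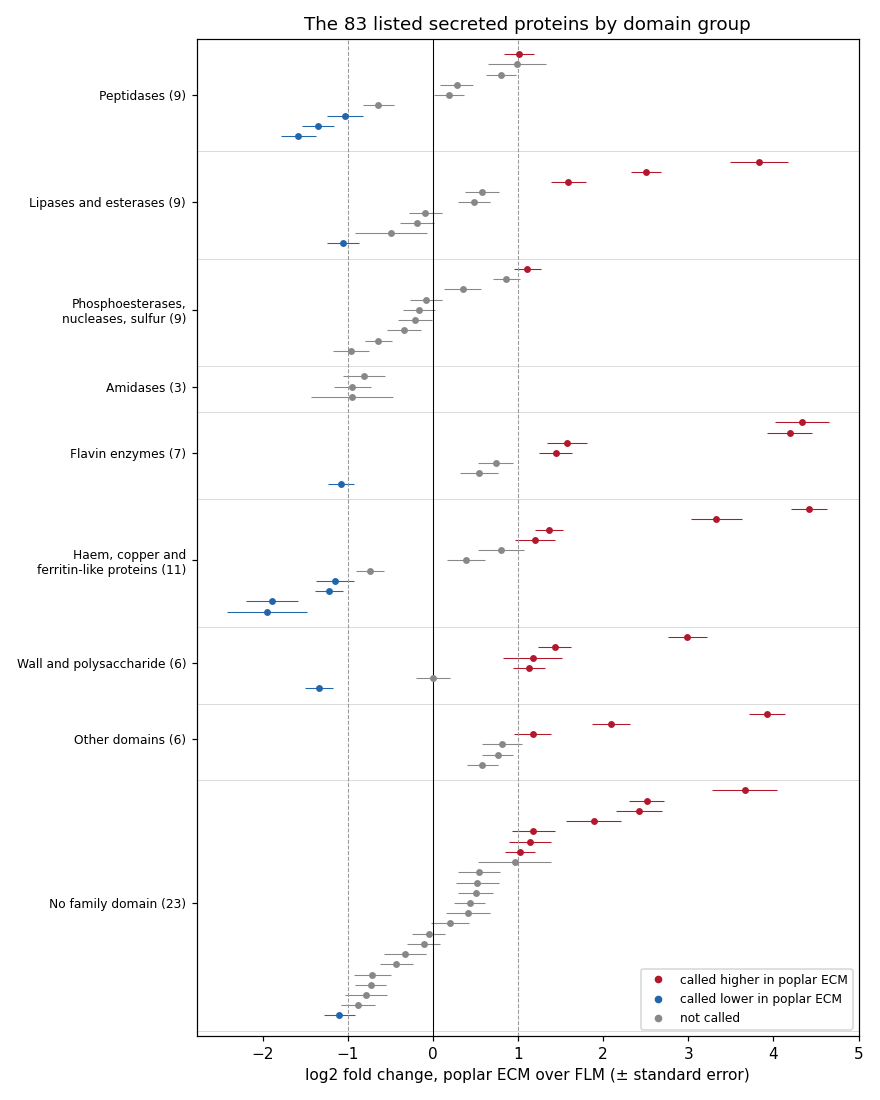
log2 fold change (poplar ECM over FLM, with its standard error) of each of the 83 genes, grouped by domain on the vertical axis with the number of genes in parentheses. Red points are the 27 genes called higher, blue points the 11 called lower and grey points the 45 not called, with dashed lines at the limit of 1, and the points farthest to the right are a tyrosinase at 4.42 and a berberine bridge oxidase at 4.33.

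Levels were compared between genes in FPKM, which divides by transcript length. The median over the 83 genes was 12.1 FPKM in poplar ECM and 11.3 FPKM in FLM, beside 14.4 FPKM and 17.5 FPKM over all genes. Listed SSPs had medians of 43.0 FPKM in poplar ECM and 13.7 FPKM in FLM, and CAZymes 21.4 FPKM and 10.5 FPKM. Of the 83 genes, 79 exceeded 1 FPKM in poplar ECM and 80 in FLM, so that nearly all were expressed with and without a host. Of all 14748 genes, 12110 and 12123 did. The list holds genes found regulated, a choice that favours expressed genes. Genes above 100 FPKM numbered 7 in poplar ECM and 5 in FLM. The range ran between 0.31 FPKM and 383 FPKM in poplar ECM and between 0.40 FPKM and 798 FPKM in FLM.

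Summed over the 83 genes, the normalized count was 6245, 5674 and 5761 in poplar ECM, against 5071, 5278 and 5717 in FLM, and the groups overlapped. A pair of abundant genes weighed on this sum. These were Cenge3:655777, with no family domain, and the ferritin-like Cenge3:635643, which together took 21.1%, 20.9% and 20.7% of it in poplar ECM, against 39.1%, 41.8% and 47.0% in FLM. Both lay below FLM in every poplar ECM library, and the pair was picked after the levels were seen.

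Peptidases were described first among the groups. The 9 genes comprise 5 classed as proteases and 4 classed as SP, and they include aspartic, serine and metallopeptidases. Of these, 1 was called higher, 3 were called lower and 5 were not called, with a median log2 fold change of 0.19. The 2 peptidases most abundant in poplar ECM both had every poplar ECM library above every FLM library, and the 3 called lower were at a lower FPKM level than these 2 in both tissues.

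Aspartic peptidases cleave proteins within the chain, mostly under acidic conditions. Cenge3:658251, annotated as yapsin-like after the surface peptidases of Saccharomyces cerevisiae, had normalized counts of 246, 208 and 170.4 in poplar ECM, against 106, 103 and 100.3 in FLM. The groups did not overlap, and its log2 fold change of 1.01 ± 0.18 passed the limit narrowly. It remained called higher under 9 of 16 alternatives at the same limits (other scalings, tools, filters and model terms, or 1 library left out), and scaling by library totals brought it to 0.65. Here and below, these 16 leave out glmTreat, which tests against the limit, and limma on log2 FPKM, whose counts are given at the end. Cenge3:570921, of family A1, lay the other way, with normalized counts of 5.19, 6.50 and 5.61 in poplar ECM, against 16.3, 15.3 and 20.4 in FLM. It was called lower at a log2 fold change of -1.58 ± 0.21, and this call held under all 16 alternatives. Cenge3:679371 carries an aspartic catalytic region only and had normalized counts of 13.7, 18.0 and 11.7 in poplar ECM, against 34.9, 25.7 and 27.9 in FLM. Its groups did not overlap either, and it was called lower at a log2 fold change of -1.03 ± 0.21, a call lost when poplar ECM replicate 1 or 3 or FLM replicate 1 was left out. It was also lost with the sequencer in the model, at a log2 fold change of -1.11.

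Serine carboxypeptidases of family S10 remove residues from the carboxyl end of proteins. Cenge3:679218, the peptidase with the highest level, had 136 ± 1.12 FPKM in poplar ECM, against 100.2 ± 3.56 FPKM in FLM (SD, n = 3 each). Its normalized counts were 369.8, 337 and 294 in poplar ECM, against 189.7, 195 and 192 in FLM, without overlap, and its log2 fold change of 0.80 ± 0.17 stayed under the limit. Cenge3:232188, also of family S10, had normalized counts of 19.4, 17.6 and 15.9 in poplar ECM, against 14.0, 17.5 and 12.0 in FLM, with overlapping groups and a log2 fold change of 0.28 ± 0.20. Sedolisins, family S53, are serine peptidases active in acid. Cenge3:311604 had normalized counts of 36.5, 27.7 and 39.5 in poplar ECM, against 33.9, 27.8 and 29.1 in FLM, and its groups overlapped at a log2 fold change of 0.19 ± 0.18. Cenge3:232157 had normalized counts of 88.3, 64.2 and 85.4 in poplar ECM, against 134, 108 and 129.8 in FLM, so that all poplar ECM libraries lay below all FLM libraries at a log2 fold change of -0.64 ± 0.18, without a call. Scaled by library totals instead, the values of Cenge3:232188 and Cenge3:311604 turned to -0.07 and -0.14.

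Cenge3:691882, of peptidase family S41, whose bacterial members include carboxyl-terminal processing peptidases, had normalized counts of 6.49, 6.42 and 5.35 in poplar ECM, against 16.1, 15.3 and 15.2 in FLM. Its libraries lay close together within each group, and it was called lower at a log2 fold change of -1.35 ± 0.19 under all 16 alternatives as well. Cenge3:672784, a metallopeptidase with a pappalysin domain, was scarcely expressed, with normalized counts of 3.20, 2.14 and 2.23 in poplar ECM, against 1.03, 1.68 and 1.11 in FLM. Its poplar ECM libraries lay above its FLM libraries at a log2 fold change of 0.99 ± 0.34, just short of the limit, on 37, 26 and 25 reads in poplar ECM.

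Lipases and esterases formed the second group of 9 genes, with 5 classed as lipases and 4 as SP. Of these, 3 were called higher, 1 was called lower and 5 were not called, and the median log2 fold change was 0.48. Lipase class 3 enzymes split triacylglycerols. Cenge3:309654, of this class, had normalized counts of 397, 326 and 255 in poplar ECM, against 12.3, 30.7 and 25.5 in FLM. It had the largest change of the group, at a log2 fold change of 3.83 ± 0.34, and its level was 195 ± 21.7 FPKM in poplar ECM, against 17.5 ± 7.14 FPKM in FLM. FLM replicate 1 stood apart on the low side, with the highest FLM library 2.49 times as high. Cenge3:694818, also of lipase class 3, had normalized counts of 140.1, 173 and 113 in poplar ECM, against 105, 105 and 95.9 in FLM, without overlap but at a log2 fold change of 0.48 ± 0.19 only.

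Carboxylesterases of type B belong to the alpha/beta hydrolases and split esters of many compounds. Of 4 genes with this domain, 2 were called higher and 1 was called lower. Cenge3:652868 had normalized counts of 95.1, 98.6 and 99.3 in poplar ECM, against 17.2, 20.1 and 14.6 in FLM, with poplar ECM libraries that scarcely differed among themselves and a called rise of 2.50 ± 0.17 on the log2 scale. Cenge3:85536 had normalized counts of 38.4, 32.1 and 40.6 in poplar ECM, against 9.27, 13.1 and 14.4 in FLM, and was called higher at a log2 fold change of 1.59 ± 0.21. Cenge3:578646 had normalized counts of 61.2, 73.8 and 45.7 in poplar ECM, against 61.8, 78.8 and 65.0 in FLM, with overlapping groups at a log2 fold change of -0.19 ± 0.20. Cenge3:689845 had normalized counts of 20.2, 26.8 and 20.7 in poplar ECM, against 56.0, 43.7 and 41.3 in FLM, and was called lower at a log2 fold change of -1.06 ± 0.19, a call lost without poplar ECM replicate 1 (-0.99) or FLM replicate 1 (-0.92). One enzyme family thus moved in both directions.

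The other 3 esterases were not called. Cenge3:594537, an alpha/beta hydrolase, had normalized counts of 19.6, 13.8 and 16.8 in poplar ECM, against 12.5, 9.91 and 11.3 in FLM, without overlap at a log2 fold change of 0.58 ± 0.20. Neutral ceramidase splits ceramide into sphingosine and a fatty acid. Cenge3:592538, with this domain, had normalized counts of 106, 80.8 and 124 in poplar ECM, against 98.7, 106 and 126 in FLM, so that the groups overlapped widely at a log2 fold change of -0.09 ± 0.19. Cenge3:654161, a GDSL hydrolase, was among the most weakly expressed of the 83 genes, with normalized counts of 0.692, 1.32 and 0.891 in poplar ECM, against 1.91, 1.21 and 0.970 in FLM, and a log2 fold change of -0.49 ± 0.42.

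**Figure D2:**
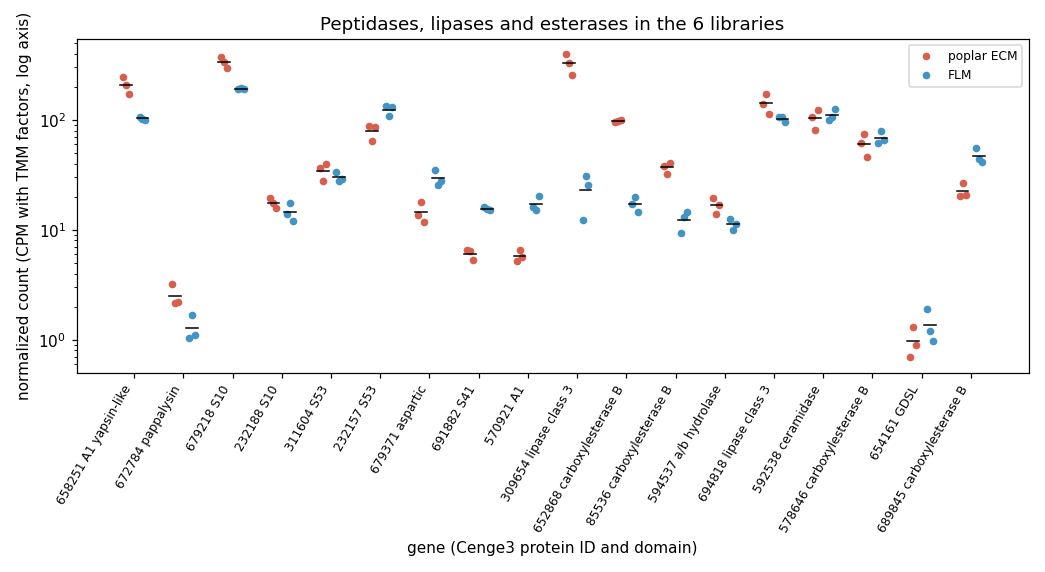
Normalized counts (CPM with TMM factors, log axis) of the 9 peptidases, on the left, and the 9 lipases and esterases, on the right, in the 3 poplar ECM libraries (red, left of each pair) and the 3 FLM libraries (blue), with a bar at each mean. Within each group genes run by log2 fold change in descending order, with the widest separation at the lipase 309654 and the poplar ECM points below the FLM points for the 3 peptidases 679371, 691882 and 570921.

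The 9 phosphatases, nucleases and sulfur enzymes held 1 called gene. This was Cenge3:670586, an arylsulfatase, which releases sulfate from aromatic esters, with normalized counts of 42.1, 44.2 and 48.9 in poplar ECM, against 21.0, 23.0 and 18.7 in FLM, and a rise of 1.11 ± 0.16 on the log2 scale. Scaled by library totals, this rise came to 0.77 and was not called. Cenge3:567806, an arylsulfotransferase and the most abundant of the group, had normalized counts of 74.4, 56.5 and 84.3 in poplar ECM, against 80.0, 82.2 and 65.9 in FLM, with overlapping groups at a log2 fold change of -0.08 ± 0.19. Phosphoesterases annotated as acid phosphatases were 2. Cenge3:539896 had normalized counts of 11.5, 7.66 and 9.89 in poplar ECM, against 8.38, 7.70 and 6.65 in FLM, and Cenge3:650083 had normalized counts of 43.3, 53.3 and 42.2 in poplar ECM, against 71.2, 66.9 and 78.1 in FLM. The groups of Cenge3:539896 overlapped at a log2 fold change of 0.35 ± 0.22, and those of Cenge3:650083 did not, at a log2 fold change of -0.64 ± 0.16. Glycerophosphodiester phosphodiesterases act on the head groups of phospholipids after the fatty acids have been removed. Cenge3:669858, with this domain, had normalized counts of 7.18, 7.98 and 5.17 in poplar ECM, against 13.8, 13.6 and 12.2 in FLM. At -0.96 ± 0.21 it was not called, and 5 of 16 alternatives called it lower. The remaining 4 genes, a PhoD-like alkaline phosphatase (Cenge3:657864), an S1/P1 nuclease (Cenge3:685141), a ribonuclease T2 (Cenge3:138520) and a further phosphoesterase (Cenge3:690701), were not called and lay at log2 fold changes of -0.16, -0.21, -0.34 and 0.86.

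The 3 amidases, enzymes that split amide bonds, all had negative log2 fold changes and none was called. Cenge3:617382 had normalized counts of 13.8, 13.9 and 10.6 in poplar ECM, against 19.0, 30.3 and 25.0 in FLM, without overlap at a log2 fold change of -0.95 ± 0.22. Cenge3:602297 had normalized counts of 16.3, 15.1 and 20.1 in poplar ECM, against 32.4, 37.9 and 19.8 in FLM, with overlapping groups at a log2 fold change of -0.81 ± 0.24. Cenge3:620501 had normalized counts of 3.89, 3.62 and 7.31 in poplar ECM, against 3.44, 14.7 and 10.5 in FLM, also with overlap, at a log2 fold change of -0.95 ± 0.48, and its FLM libraries differed 4.28 times between the highest and the lowest. Scaling by library totals, which moved the median of all genes to -0.332 on the log2 scale, called all 3 lower.

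Flavin enzymes oxidise their substrates with a bound flavin. Of 7 genes, 4 were called higher, 1 was called lower and 2 were not called, and the median log2 fold change was 1.44. Oxidases with a berberine bridge domain, which in plants and fungi act on sugars, phenols or alkaloids, were 3, and all were called but not in one direction. Cenge3:703016 had normalized counts of 38.1, 45.4 and 51.8 in poplar ECM, against 1.32, 3.25 and 2.12 in FLM, and rose by 4.33 ± 0.32 on the log2 scale, the second largest log2 fold change among the 83 genes. Cenge3:623629 had normalized counts of 17.3, 19.2 and 23.9 in poplar ECM, against 8.01, 7.60 and 6.60 in FLM, and rose by 1.44 ± 0.20 on the log2 scale. Cenge3:661830, the most abundant of the 3 in FLM, had normalized counts of 30.9, 35.2 and 36.2 in poplar ECM, against 79.7, 67.8 and 69.3 in FLM, and was called lower at a log2 fold change of -1.08 ± 0.16. These 3 calls held under all 16 alternatives.

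Among FAD-linked oxidases without that domain, Cenge3:616008 had normalized counts of 53.8, 62.0 and 39.9 in poplar ECM, against 22.7, 16.1 and 13.4 in FLM, and was called higher at a log2 fold change of 1.57 ± 0.24. Cenge3:705463 had normalized counts of 11.1, 10.9 and 8.20 in poplar ECM, against 6.14, 5.98 and 5.94 in FLM, without overlap, and was not called at a log2 fold change of 0.74 ± 0.20. Flavin-containing monooxygenases add oxygen to nitrogen or sulfur atoms. Cenge3:617407, with this domain, had normalized counts of 67.0, 44.2 and 51.2 in poplar ECM, against 3.90, 2.19 and 2.79 in FLM, and rose by 4.19 ± 0.27 on the log2 scale. It lies outside the rule for naming genes, and is given after its value was seen. The last gene, the FAD-dependent oxidoreductase Cenge3:627102, had overlapping groups at a log2 fold change of 0.54.

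Haem, copper and ferritin-like proteins moved in both directions, with 4 genes called higher, 4 called lower and 3 not called among 11. An intradiol dioxygenase is counted with this group. Tyrosinases are copper enzymes that oxidise phenols to quinones. Cenge3:624786 had normalized counts of 346, 288 and 329.7 in poplar ECM, against 12.4, 17.2 and 15.5 in FLM. Its log2 fold change of 4.42 ± 0.21 was the largest of all 83 genes, and the level was 146 ± 20.8 FPKM in poplar ECM, against 8.64 ± 1.32 FPKM in FLM. Cenge3:603497 rose as well, with normalized counts of 14.9, 18.8 and 20.4 in poplar ECM, against 2.59, 1.60 and 1.18 in FLM, and a log2 fold change of 3.33 ± 0.30. Cenge3:688437 had normalized counts of 73.1, 82.7 and 47.2 in poplar ECM, against 52.7, 60.4 and 42.2 in FLM, so that the groups overlapped at a log2 fold change of 0.39 ± 0.23. In poplar ECM Cenge3:624786 was the most abundant tyrosinase, at 146 FPKM beside 34.3 FPKM of Cenge3:688437, and in FLM Cenge3:688437 was, at 33.9 FPKM.

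All 3 genes with a ferritin-like domain, named after the helical fold of the iron store ferritin, were called lower. Cenge3:635643 had normalized counts of 499.7, 413 and 509 in poplar ECM, against 873, 1006 and 1268 in FLM, and its level was 239 ± 44.0 FPKM in poplar ECM, against 665 ± 103 FPKM in FLM. It was the most abundant of the 11 genes in both tissues, its groups did not overlap, and its log2 fold change was -1.15 ± 0.22. Cenge3:655549 had normalized counts of 107, 102 and 116 in poplar ECM, against 245, 244 and 267 in FLM, and a log2 fold change of -1.22 ± 0.16, a call that held under all 16 alternatives. Cenge3:600500 had normalized counts of 0.865, 0.412 and 0.535 in poplar ECM, against 2.89, 2.80 and 1.31 in FLM, on 10, 5 and 6 reads in poplar ECM, and a log2 fold change of -1.95 ± 0.47. Without its FLM libraries, Cenge3:600500 would not have passed the filter. Neither Cenge3:635643 nor Cenge3:600500 stayed called when the sequencer entered the model, which compares poplar ECM replicate 1 alone with FLM. Their log2 fold changes there were -1.07 and -1.43.

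Cytochrome P450 enzymes are haem monooxygenases. Cenge3:660516 had normalized counts of 8.31, 6.50 and 6.06 in poplar ECM, against 14.6, 30.9 and 32.1 in FLM, and was called lower at a log2 fold change of -1.89 ± 0.30, with FLM replicate 1 lower than the other FLM libraries. This call was lost with the sequencer in the model, where its log2 fold change was -1.64. Cenge3:31369 had normalized counts of 20.9, 17.8 and 19.7 in poplar ECM, against 28.4, 35.8 and 33.2 in FLM, and was not called at a log2 fold change of -0.74 ± 0.17, although its groups did not overlap. Both P450 genes overlap an annotated neighbour, and the deposited counts hold reverse-strand reads only. The remaining 3 genes were the haem peroxidase Cenge3:216923 and the catalase Cenge3:573759, called higher at log2 fold changes of 1.36 and 1.20, and the intradiol dioxygenase Cenge3:692477 at a log2 fold change of 0.80 without a call. Catalase and peroxidases break down hydrogen peroxide, and intradiol dioxygenases open the ring of catechols.

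**Figure D3:**
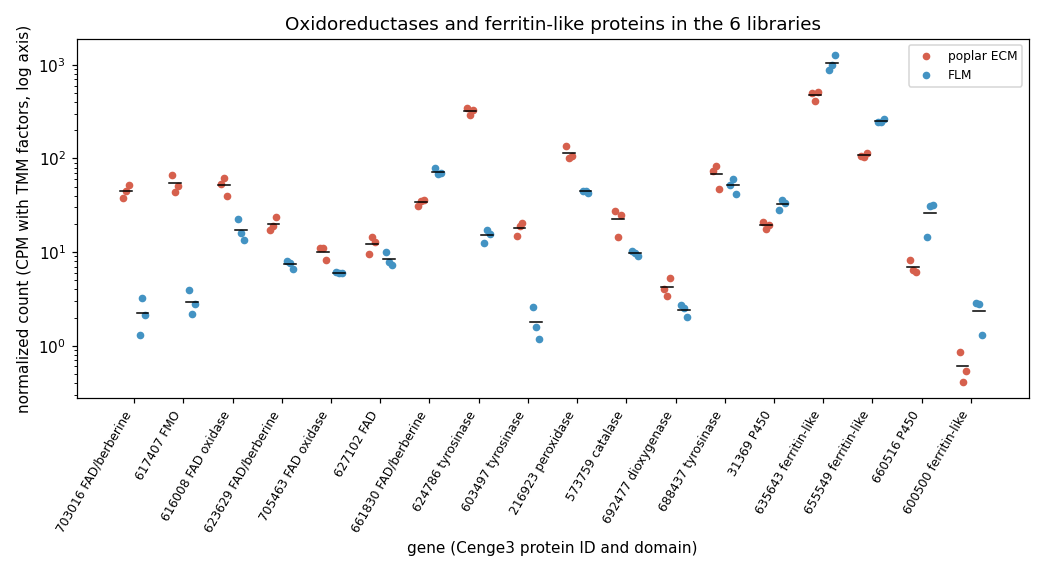
Normalized counts (CPM with TMM factors, log axis) of the 7 flavin enzymes, on the left, and the 11 haem, copper and ferritin-like proteins, on the right, in the 3 poplar ECM libraries (red, left of each pair) and the 3 FLM libraries (blue), with a bar at each mean. The group on the right includes the intradiol dioxygenase 692477. The poplar ECM points of the oxidase 703016, the monooxygenase 617407 and the tyrosinases 624786 and 603497 lie far above the FLM points, and all 3 ferritin-like genes lie below them.

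Wall and polysaccharide proteins comprised 6 genes, with 4 called higher, 1 called lower and 1 not called, and a median log2 fold change of 1.15. Cenge3:647968, with an alginate lyase domain, which cleaves chains of uronic acids, had normalized counts of 13.2, 18.6 and 14.3 in poplar ECM, against 2.15, 1.85 and 1.80 in FLM. It had the largest change of the group, at a log2 fold change of 2.99 ± 0.23. Cenge3:687299, with a fasciclin domain, found in adhesion proteins, was the most abundant and had normalized counts of 148, 127 and 95.4 in poplar ECM, against 51.0, 58.5 and 59.2 in FLM. It was called higher at a log2 fold change of 1.13 ± 0.19, and came to 0.99 without poplar ECM replicate 1. LysM domains bind chitin and related sugars, and the LysM gene Cenge3:558758 was called higher at a log2 fold change of 1.43. Cenge3:700751, with a WSC domain known from wall stress sensors of Saccharomyces cerevisiae, was called higher at a log2 fold change of 1.17 ± 0.35 on under 1 FPKM in both tissues, and 9 of 16 alternatives kept that call. Cenge3:605583, with repeats of the PIR wall proteins of Saccharomyces cerevisiae, lay at a log2 fold change of 0.00. Cenge3:664061, a glycosyltransferase of the GMA12/MNN10 family, whose yeast members add sugars to proteins in the Golgi, had normalized counts of 33.4, 25.8 and 29.2 in poplar ECM, against 68.1, 73.5 and 81.7 in FLM, and was called lower at a log2 fold change of -1.34 ± 0.17.

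The 6 genes with single other domains all had every poplar ECM library above every FLM library, and 3 of them were called higher. Cenge3:663798 carries the SMP-30/gluconolactonase domain of enzymes that open sugar lactones. It had normalized counts of 86.3, 80.1 and 87.4 in poplar ECM, against 5.11, 7.11 and 4.52 in FLM, and rose by 3.92 ± 0.21 on the log2 scale. Cenge3:549765, with a pirin domain, was the most abundant of the 6 and had normalized counts of 194, 162 and 106 in poplar ECM, against 104, 82.7 and 77.5 in FLM, without a call at a log2 fold change of 0.81 ± 0.23. Cenge3:658349, with the domain DUF946 of unknown function, had normalized counts of 45.9, 59.0 and 44.6 in poplar ECM, against 30.1, 38.6 and 31.5 in FLM, and the smallest change of the 6, at a log2 fold change of 0.58 ± 0.18. DUF2183 and hexokinase, which phosphorylates sugars, were the domains of the other 2 called genes, Cenge3:698262 at a log2 fold change of 2.09 and Cenge3:439270 at a log2 fold change of 1.17, and Cenge3:14653, with the domain DUF1996, lay at a log2 fold change of 0.76.

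No family domain was annotated for 23 genes, of which 7 were called higher, 1 was called lower and 15 were not called, with a median log2 fold change of 0.43. The 4 largest called rises were those of Cenge3:709623, Cenge3:650724, Cenge3:86336 and Cenge3:663415. Cenge3:709623 had normalized counts of 30.1, 33.3 and 47.6 in poplar ECM, against 1.64, 4.83 and 2.26 in FLM, and rose by 3.66 ± 0.38 on the log2 scale. Its FLM libraries differed 2.95 times between the highest and the lowest, and still lay below all poplar ECM libraries. Cenge3:650724 had normalized counts of 54.8, 63.6 and 52.8 in poplar ECM, against 11.3, 11.4 and 7.30 in FLM, and rose by 2.51 ± 0.21 on the log2 scale. Cenge3:86336 had normalized counts of 48.6, 26.2 and 52.0 in poplar ECM, against 8.75, 6.46 and 8.40 in FLM, and rose by 2.42 ± 0.27 on the log2 scale, with poplar ECM replicate 2 lower than the other 2. Cenge3:663415 had normalized counts of 10.6, 7.49 and 17.0 in poplar ECM, against 3.31, 3.80 and 2.31 in FLM, and rose by 1.89 ± 0.32 on the log2 scale.

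The single called fall was that of Cenge3:640492, with normalized counts of 50.8, 39.4 and 58.6 in poplar ECM, against 99.3, 108 and 112 in FLM, and a log2 fold change of -1.10 ± 0.18, a call lost without poplar ECM replicate 2 (-0.96) and with the sequencer in the model, where the log2 fold change was -1.07. Cenge3:655777 had the highest level of all 83 genes in both tissues, with 383 ± 7.99 FPKM in poplar ECM, against 798 ± 74.0 FPKM in FLM. Its normalized counts were 817, 775 and 682 in poplar ECM, against 1107, 1199 and 1420.2 in FLM, without overlap, and at a log2 fold change of -0.71 ± 0.21 it was not called. Cenge3:691020 ranked next among these 23 genes, with 201 ± 64.3 FPKM in poplar ECM, against 112 ± 37.6 FPKM in FLM. It had normalized counts of 267, 249 and 361 in poplar ECM, against 170.2, 127 and 91.2 in FLM, and was called higher at a log2 fold change of 1.18 ± 0.25, with 12 of 16 alternatives keeping the call, which was lost without poplar ECM replicate 3 (0.95) or FLM replicate 3 (0.97). The other 2 called genes, Cenge3:671307 and Cenge3:553679, lay at log2 fold changes of 1.14 and 1.02, and 8 of 16 alternatives kept the call of Cenge3:553679.

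The spread among replicates entered the tests behind the list, so the spread of its genes is given as a description. The median coefficient of variation of the 83 genes was 17.8% in poplar ECM and 13.9% in FLM, beside 20.2% and 11.2% over all genes tested. In poplar ECM, 7 of the 83 genes (8.43%) had a highest library more than 2 times the lowest, beside 17.9% of all genes tested. In FLM, again 7 genes (8.43%) did, beside 5.46%. The widest in poplar ECM was Cenge3:558447, with no family domain, whose normalized counts were 5.80, 10.7 and 2.85 in poplar ECM, against 2.99, 4.58 and 2.38 in FLM. Poplar ECM replicate 3 was the lowest there, and left out, it brought the gene to a call at a log2 fold change of 1.28. The widest in FLM was the amidase Cenge3:620501. Poplar ECM replicate 2 was the lowest of its group for 36 genes (43.4%), replicate 3 for 28 (33.7%) and replicate 1 for 19 (22.9%), beside 40.7%, 38.2% and 21.1% of all genes tested.

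Gene positions were not used to choose the list. All 83 genes were found in the RefSeq annotation of assembly version 2.0, whose table gives starts and ends but not scaffold names, so that scaffolds are numbered here in the order of the table. The median of the longer of the 2 flanking intergenic distances was 3980 bp for the 83 genes, beside 2223 bp for all genes, 2894 bp for listed SSPs and 3030 bp for listed CAZymes. It was 889 bp for the 5 lipases, 2769 bp for the 5 proteases and 5653 bp for the 73 SP. These distances varied widely, since 8 genes had both flanks under 1000 bp and 10 had a flank over 50000 bp. The longest flank, 154886 bp, was that of the GDSL hydrolase Cenge3:654161. Genes called higher, called lower and not called had medians of 3623 bp, 3673 bp and 4876 bp. The lipase Cenge3:309654 lies at 740702 to 742165 on scaffold 66, with neighbours at 804 bp and 85 bp. By contrast, the oxidase Cenge3:703016 lies at 594468 to 596489 on scaffold 5, with flanks of 14896 bp and 2150 bp, and Cenge3:709623 at 124862 to 127626 on scaffold 103, with flanks of 60930 bp and 100435 bp.

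The transcripts were longer than average, with a median of 1953 bp over 77 genes with a length, beside 1559 bp over all genes with a length. Listed CAZymes had a median of 1715 bp and listed SSPs of 903 bp. Lengths were worked back from counts and FPKM, for genes with enough FPKM only. Proteins under a length limit had been classed as SSPs by the study, which are left out of these 83.

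Pairs of the 83 genes within 10 genes of each other numbered 8, and 2 pairs were direct neighbours. The carboxylesterase Cenge3:652868, at 3192669 to 3195517 on scaffold 4, and Cenge3:538451, at 3197308 to 3200270, lie 1790 bp apart, with log2 fold changes of 2.50 and 0.50. The sedolisin Cenge3:232157, at 540152 to 542401 on scaffold 44, and the carboxypeptidase Cenge3:232188, at 543440 to 545519, lie 1038 bp apart, at log2 fold changes of -0.64 and 0.28. Direct neighbours in this list thus differed in their log2 fold change. The tyrosinase Cenge3:624786, at 2573121 to 2575080 on scaffold 1, lies 2 genes and 6373 bp from a listed CAZyme of SSP size, Cenge3:624791, which was itself called higher at a log2 fold change of 2.72. The oxidase Cenge3:623629 and Cenge3:671307, both called higher, lie 2 genes and 41291 bp apart.

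The nearest gene on each side that was not itself in the study's list was then examined, since these genes were not chosen for how they changed. Of 158 such neighbours, 130 were tested, 12 (9.23%) were called higher and 10 (7.69%) lower, and their median log2 fold change was -0.02. Some of those called lower passed the filter only through their FLM libraries. With a filter of at least 50 counts in at least 3 libraries, 8 neighbours were called lower. Among all unlisted genes tested, 9.24% were called higher and 3.16% lower. Beside the 27 listed genes called higher, 43 neighbours were tested, of which 8 (18.6%) were called higher and 1 lower. Beside the 11 called lower, 17 were tested, with none called higher and 2 lower, and beside the 45 not called, 72 were tested, with 5 higher and 7 lower. Some neighbours stand beside 2 listed genes and are counted with each. A difference between these shares was not tested.

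The largest rise among neighbours was that of Cenge3:652872, which lies beyond Cenge3:538451 and so next to the pair with the carboxylesterase Cenge3:652868. It had normalized counts of 115, 131 and 9.98 in poplar ECM, against 6.34, 4.56 and 3.28 in FLM. Poplar ECM replicate 3 was far below the other 2 and still above all FLM libraries, and the log2 fold change was 4.18 ± 0.74 (edgeR adjusted p = 0.00236; adjusted p 7.54e-07 to 0.0202 over 17 alternatives by edgeR, DESeq2 or limma). Such ranges, here and below, mix different tests and do not show how stable the edgeR value is. Cenge3:686850, beside Cenge3:86336, had 64.0, 34.0 and 40.5 in poplar ECM, against 4.82, 3.32 and 3.47 in FLM. It rose by 3.57 ± 0.28 on the log2 scale (edgeR adjusted p = 8.53e-06; adjusted p 9.86e-37 to 0.000244 over the alternatives, which include DESeq2 and limma). Cenge3:657239, beside Cenge3:695045, rose by 2.02 ± 0.33 on the log2 scale (edgeR adjusted p = 0.00151, 2.26e-08 to 0.0189), although Cenge3:695045 itself lay at a log2 fold change of -0.73. Cenge3:599742, beside the tyrosinase Cenge3:624786, had 75.6, 73.5 and 71.2 in poplar ECM, against 25.1, 19.4 and 19.9 in FLM. It rose by 1.78 ± 0.17 on the log2 scale (edgeR adjusted p = 3.36e-05, 2.56e-20 to 0.00187). The files name no function for these genes.

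Among neighbours called lower, Cenge3:323951, beside Cenge3:669369, had no count in any poplar ECM library, against 41, 43 and 13 counts in FLM. It was at least 1.97-fold lower on average with the floor of 3 counts in the shallowest poplar ECM library, and FLM replicate 3 lay under that floor (edgeR adjusted p = 0.0224, 0.00155 to 0.187 over 12 alternatives). Cenge3:685607, beside the pirin gene Cenge3:549765, had 0.260, 0.165 and 0.446 in poplar ECM, against 3.02, 2.98 and 0.723 in FLM, at a log2 fold change of -2.95 ± 0.71 (edgeR adjusted p = 0.0124, 0.000223 to 0.167). Cenge3:729380, beside the amidase Cenge3:602297, lay at a log2 fold change of -2.20 ± 0.41 (edgeR adjusted p = 0.0031, 0.000293 to 0.0655). These 3 calls rest on at most 5 counts in a poplar ECM library and were kept in 9 of 12, 9 of 13 and 13 of 14 alternatives. All 3 genes passed the filter of 10 counts only through the FLM libraries, where they were higher, which limits what their p-values show. All 3 were lost with the sequencer in the model, the first 2 also without poplar ECM replicate 1 or 2, and that of Cenge3:685607 also with limma-voom. Cenge3:602031, beside the oxidoreductase Cenge3:627102, had 20.4, 28.1 and 12.7 in poplar ECM, against 108, 59.9 and 91.3 in FLM. It was called lower at a log2 fold change of -2.08 ± 0.30 (edgeR adjusted p = 0.00076, 1.64e-10 to 0.0448), and kept this call under all 17 alternatives.

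Both neighbours were called higher at Cenge3:663415 and Cenge3:691020, which have no family domain and were called higher themselves. These were noticed after the values were seen. At Cenge3:663415 the neighbours Cenge3:571413, 1416 bp away, and Cenge3:663416, 165 bp away, rose by 1.26 ± 0.15 and 1.70 ± 0.26 on the log2 scale (edgeR adjusted p = 0.000245 and 0.00115). At Cenge3:691020, Cenge3:691019, 693 bp away, rose by 1.16 ± 0.17 on the log2 scale (edgeR adjusted p = 0.000757). Each of these 3 neighbours was called in at least 16 of 17 alternatives, with a highest edgeR adjusted p of 0.00938, 0.0474 and 0.0214, and library totals brought Cenge3:571413 to 0.92 and Cenge3:691019 to 0.83. The other neighbour of Cenge3:691020, Cenge3:670329, 24499 bp away, had normalized counts of 59.0, 84.2 and 22.4 in poplar ECM, against 23.3, 25.1 and 12.4 in FLM. The groups overlapped, since poplar ECM replicate 3 lay below FLM replicates 1 and 2. It was called higher at a log2 fold change of 1.45 ± 0.42 (edgeR adjusted p = 0.0280; adjusted p 5.95e-05 to 0.157 over 17 alternatives), and 11 of these kept the call.

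**Figure D4:**
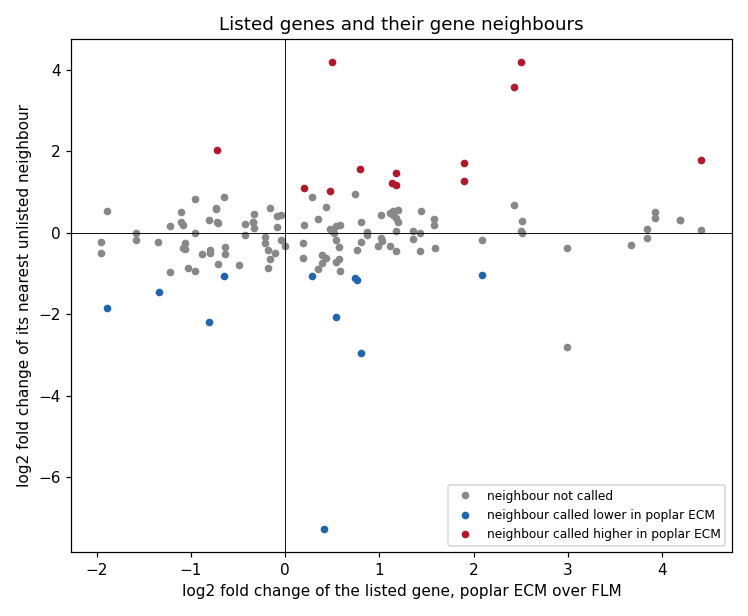
log2 fold change (poplar ECM over FLM) of each tested nearest unlisted neighbour on the vertical axis against that of its listed gene on the horizontal axis, with 1 point for each pair. Red points are neighbours called higher and blue points neighbours called lower, grey points are neighbours not called, and the lowest point is Cenge3:323951, whose fitted value depends on the prior count because it had no count in poplar ECM.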

How the data were processed

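RNA-Seq libraries were used, 3 of poplar ECM and 3 of FLM. The authors trimmed the reads, aligned them to the C. geophilum version 2.0 reference transcripts and counted primary reverse-strand hits with featureCounts. The submitters' processing notes also name HISAT 0.1.4. The deposited values are raw counts per gene, and the authors made the deposited FPKM (fragments per transcript length and library total) and TPM from them. TPM served only to check the files. The sequencer of each library was taken from the study's methods tables.

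Counts of genes with at least 10 in at least 3 libraries were tested with edgeR 4.0.16 (TMM, quasi-likelihood, default prior count) in R 4.3.3, with Benjamini-Hochberg adjustment over all 12692 genes. A prior count of 2 was used only for log2 CPM values, such as those behind the correlations between libraries. Standard errors were derived as the absolute log2 value divided by the root of the F statistic. The biological coefficient of variation was 0.201. The code was tested on simulated counts. Alternatives used DESeq2 1.42.0, limma 3.58.1, other scalings and filters, and left out 1 library in turn. Summaries and figures used Python 3.11.15, pandas 2.3.3 and matplotlib 3.10.9.

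Members and lists were chosen with earlier results of these data known. Domain groups follow the study's annotation, and Cenge3:650724, not in the copy at hand, was put with the genes of no family domain. Named were all peptidases and esterases, in other groups the genes with the highest level and largest and smallest fold change and those sharing a domain, among genes of no family domain the 4 largest called rises and falls and the 2 highest levels, and the 4 largest called rises and falls among neighbours. Flanks and neighbours follow gene order in the RefSeq annotation (14684 of 14748 IDs matched), with a new scaffold where positions fall back (149 scaffolds). No sequences were used, so related genes outside the list were not counted.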

Additional observations from a re-analysis of the deposited data

How the results depend on the processing

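The alternatives kept 17 of the 27 rises and 5 of the 11 falls called in every one of 16 settings with the same limits, and 34 of the 45 genes not called stayed so. These 16 do not include glmTreat or limma on log2 FPKM, under which some of the kept calls were lost. No called gene changed direction. With library totals 18 genes were called higher and 20 lower, and the median over all genes moved to -0.332 beside 0.00969 (log2). Rises lost there were those of Cenge3:573759 (0.86), Cenge3:691020 (0.85), Cenge3:439270 (0.85), Cenge3:700751 (0.85) and Cenge3:671307 (0.79). Those of Cenge3:670586 (0.77), Cenge3:687299 (0.77), Cenge3:553679 (0.70) and Cenge3:658251 (0.65) were lost as well. With the sequencer as a term, the contrast rests on poplar ECM replicate 1 alone against FLM, so the numbers called are not given. This setting is among the 16 above, and the losses in it enter the counts of kept calls. Cenge3:660516 and Cenge3:663415 lost their calls in this setting only. Among the calls lost in that model, only Cenge3:553679 came under the limit in log2 fold change, at 0.80. The others kept log2 values larger than 1 in size and were lost on adjusted p alone. Without a minimum fold change 33 were higher and 21 lower, and glmTreat, which tests against the limit, called 14 higher and 2 lower. limma called 16 higher and 15 lower on log2(FPKM + 1) and 17 and 19 on log2(FPKM + 0.1). Leaving out 1 library in turn gave between 23 and 26 higher and between 10 and 12 lower.

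Single libraries decided some calls near the limit. Rises were lost without poplar ECM replicate 3 for Cenge3:439270 (log2 fold change 0.94), Cenge3:691020 (0.95), Cenge3:553679 (0.93) and Cenge3:700751 (0.86), without replicate 1 for Cenge3:658251 (0.88), Cenge3:687299 (0.99) and Cenge3:700751 (1.10), and without replicate 2 for Cenge3:553679 (0.97). Leaving out FLM replicate 3 ended those of Cenge3:671307 (0.96), Cenge3:691020 (0.97), Cenge3:658251 (0.99) and Cenge3:700751 (1.23), FLM replicate 1 or 2 those of Cenge3:553679 (0.98 and 0.94) and Cenge3:700751 (1.03 and 1.25). Falls were lost for Cenge3:689845 and Cenge3:679371 without poplar ECM replicate 1 (both -0.99) or FLM replicate 1 (-0.92 and -0.89), for Cenge3:679371 without poplar ECM replicate 3 (-0.93), for Cenge3:640492 and Cenge3:600500 without poplar ECM replicate 2 (-0.96 and -1.73) and for Cenge3:635643 without FLM replicate 3 (-0.99).

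Of the neighbours, 7 were called higher and 21 lower with library totals, 5 and 2 with glmTreat, and 16 and 21 without a minimum fold change. On log2(FPKM + 1), limma called 6 neighbours higher and 12 lower, and on log2(FPKM + 0.1) 6 and 21. Alternatives counted for single neighbours leave out limma on log2 FPKM and glmTreat. The latter ended the calls of Cenge3:323951, Cenge3:685607, Cenge3:571413, Cenge3:663416, Cenge3:670329 and Cenge3:691019. Leaving out 1 library in turn gave between 9 and 14 higher and between 6 and 11 lower. With 3 genes a side, 28 of 385 (7.27%) were higher and 17 (4.42%) lower, beside 9.24% and 3.16% of all unlisted genes tested.

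With the replicate number as a block, 26 genes were called higher and 11 lower, as were 11 and 10 neighbours, and Cenge3:658251 fell just short of the limit. Libraries with the same number correlated at 0.033, 0.19 and 0.234 in their deviations from the group means. Every poplar ECM library correlated best with its own number, but FLM replicate 1 correlated better with poplar ECM replicate 2, at 0.0806. The samples share only a number. The planned counts of related genes outside the list were not run, since they need protein sequences or product names. The shallower poplar ECM libraries limit weakly expressed genes, and no test for a single library that stands apart was run in groups of 3.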
